A study of Homo sapiens with 2 samples.

Results

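Human microRNAs (miRNAs) from miR-549 to miR-999 were examined in exosomes of FaDu cells, a line of hypopharyngeal squamous cell carcinoma. Members were chosen by name alone: every array entry whose miRNA number lay in that range, with any letter or arm suffix, leaving out miR-615, miR-654, miR-655, miR-656, miR-663, miR-664, miR-665, miR-668, miR-758 and miR-889. The rule found 214 members among the 2549 miRNAs on the array, under 153 different numbers. The study asked which exosomal miRNAs differ when the long noncoding RNA HOTTIP is overexpressed. One-colour microarrays measured 200 ng of Cy3-labelled RNA from exosomes of FaDu cells given an empty control construct (oe-NC) or a HOTTIP overexpression construct (oe-HOTTIP). The labels describe a plasmid with lentivirus, and the study's methods describe plasmids delivered by lipofection. Each group had 1 array, and the arrays shared 1 slide and 1 scan. Differences therefore have no replicate check, no test was possible, and the errors below are the SD over the spots of an array.

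The group labels contradict each other. The sample titles and treatment fields assign the arrays one way, which is the way used here, while a free-text field of each sample names the other group. The columns of the deposited normalized table also follow the array of the opposite group. If the titles are wrong, every direction below turns round, and the sizes stay as given. The FaDu label was checked against miRNAs typical of squamous epithelium. miR-205-5p, miR-200c-3p and miR-141-3p were detected on both arrays, and miR-203a-3p was detected on neither. The summed signal of these 4 was 503 on oe-NC and 608 on oe-HOTTIP. Of 4 miRNAs typical of blood cells, 3 were detected on both arrays (miR-451a, miR-486-5p and miR-223-3p), with a summed signal of 2258 over the 4 on oe-NC and 2585 on oe-HOTTIP. miR-451a alone gave 2233 and 2552 of these sums, while miR-486-5p read 12.6 and 5.91 and miR-223-3p 9.53 and 24.1, and miR-142-3p was detected on neither. miR-122-5p, typical of liver and serum, was detected on both arrays at 8.99 and 14.8. The part of RNA from blood or serum in the results below was not tested.

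A miRNA is cut from an RNA hairpin and guides Argonaute proteins to messenger RNAs that pair with it, above all through its seed, the bases near its 5′ end, and the paired messages are then repressed. Either arm of the hairpin, called 5p and 3p, can yield the mature strand. Numbers follow the order in which miRNAs were registered, so this range holds entries from early large-scale cloning and prediction, many of them found in primates and not in mouse. Exosomes are small vesicles that cells release, and they carry miRNAs to other cells.

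Mature sequences were available from RefSeq (GRCh38.p14) for 185 of the 214 members, and for 21 of the 26 that were detected on at least 1 array. Those on which the results turn are given here 5′ to 3′, with the seed (bases 2 to 8) in capitals. The first 3 had lower signals on oe-HOTTIP and the next 2 had higher signals. The pair miR-642a-3p and miR-642b-3p shares a seed. The following 4 were detected on oe-HOTTIP alone, and miR-625-3p was detected on oe-NC alone.
miR-601: uGGUCUAGgauuguuggaggag
miR-718: cUUCCGCCccgccgggcgucg
miR-940: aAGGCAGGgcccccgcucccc
miR-630: aGUAUUCUguaccagggaaggu
miR-762: gGGGCUGGggccggggccgagc
miR-642a-3p: aGACACAUuuggagagggaacc
miR-642b-3p: aGACACAUuuggagagggaccc
miR-574-5p: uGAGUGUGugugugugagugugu
miR-670-5p: gUCCCUGAguguauguggug
miR-765: uGGAGGAGaaggaaggugaug
miR-766-5p: aGGAGGAAuuggugcuggucuu
miR-625-3p: gACUAUAGaacuuucccccuca
The 21 sequences held 20 different seeds. The only seed in common was that of miR-642a-3p and miR-642b-3p, whose mature strands differ by 1 base, A20C, counted from 1 at the 5′ end with the base of miR-642a-3p first. Probes for these strands may not tell them apart.

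Most members gave no signal above background. The scanner software marked 17 of the 214 members as detected on oe-NC (7.94%) and 21 on oe-HOTTIP (9.81%). Over all 2549 miRNAs the shares were 12.9% and 15.3%. On both arrays 12 members were detected (5.61%), against 10.2% of all miRNAs. A further 5 were detected on oe-NC alone and 9 on oe-HOTTIP alone, and 188 (87.9%) on neither. Of all 2549 miRNAs, 67 were detected on oe-NC alone, 129 on oe-HOTTIP alone and 82.1% on neither. The plot of detected shares sets these members beside the lower and higher numbers. Of 658 miRNAs numbered up to miR-548, 14.9% were detected on oe-NC and 17.2% on oe-HOTTIP. Of 1639 numbered above miR-999, the shares were 12.3% and 15.0%.

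The 188 undetected members had signals from −3.17 to 5.37 on oe-NC, with a median of −0.76, and from −3.17 to 4.02 on oe-HOTTIP, with a median of −0.45. Signals are in the scanner's background-subtracted intensity units, so values below 0 occur. None of these signals passed the mean plus 2 SD of the negative control spots, which was 8.62 on oe-NC and 7.87 on oe-HOTTIP. Of the detected members, 13 of 17 passed it on oe-NC and 17 of 21 on oe-HOTTIP. Each member was read by 20 spots spread over 1 to 4 probes. No spot of a member was saturated.

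The oe-HOTTIP array was brighter. Before scaling, the median log2 difference (oe-HOTTIP minus oe-NC) was 0.67 over all miRNAs detected on both arrays and 0.42 over the 12 members. To put the arrays on 1 scale, the signals of each were divided by the 90th percentile among the 261 shared detected miRNAs. After that step the 12 members had a median log2 difference of −0.23, and all 261 had 0.02. At the study's threshold of 2-fold, 3 of the 12 were lower on oe-HOTTIP (25.0%) and 2 were higher (16.7%). Among all 261, 21.1% were lower and 18.0% higher. The split of the 12 members moved with the scaling, to 3 lower and 5 higher without it, 4 lower and 1 higher at the 90th percentile over all miRNAs, and 4 lower and 0 higher under quantile normalization. The split of all 261 under these other scalings was not counted. With the scaling used here the other 7 members differed by less than 2-fold. In size, the median difference of the members was 0.86 on the log2 scale, against 0.70 over all 261, 0.35 over the 85 miRNAs numbered up to miR-548 and 1.07 over the 155 numbered above miR-999. These shares are descriptions of 2 arrays and were not tested.

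**Figure D1:**
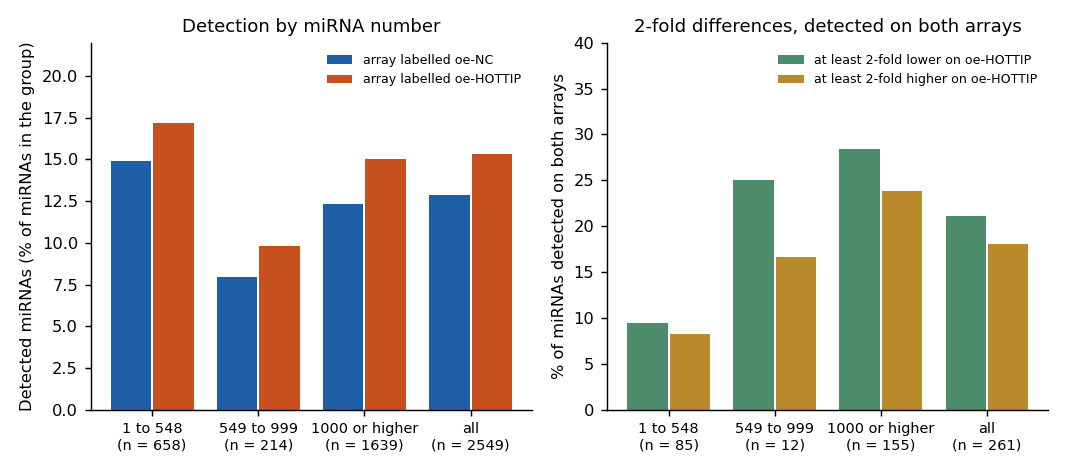
Left, percent of miRNAs detected on oe-NC (blue) and oe-HOTTIP (orange) by range of miRNA number, with bars of 7.94% and 9.81% for the members, below the other ranges on both arrays. Right, percent of miRNAs detected on both arrays that were 2-fold or more lower (green) or higher (ochre) on oe-HOTTIP, with bars of 25.0% and 16.7% for the 12 members.

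**Figure D2:**
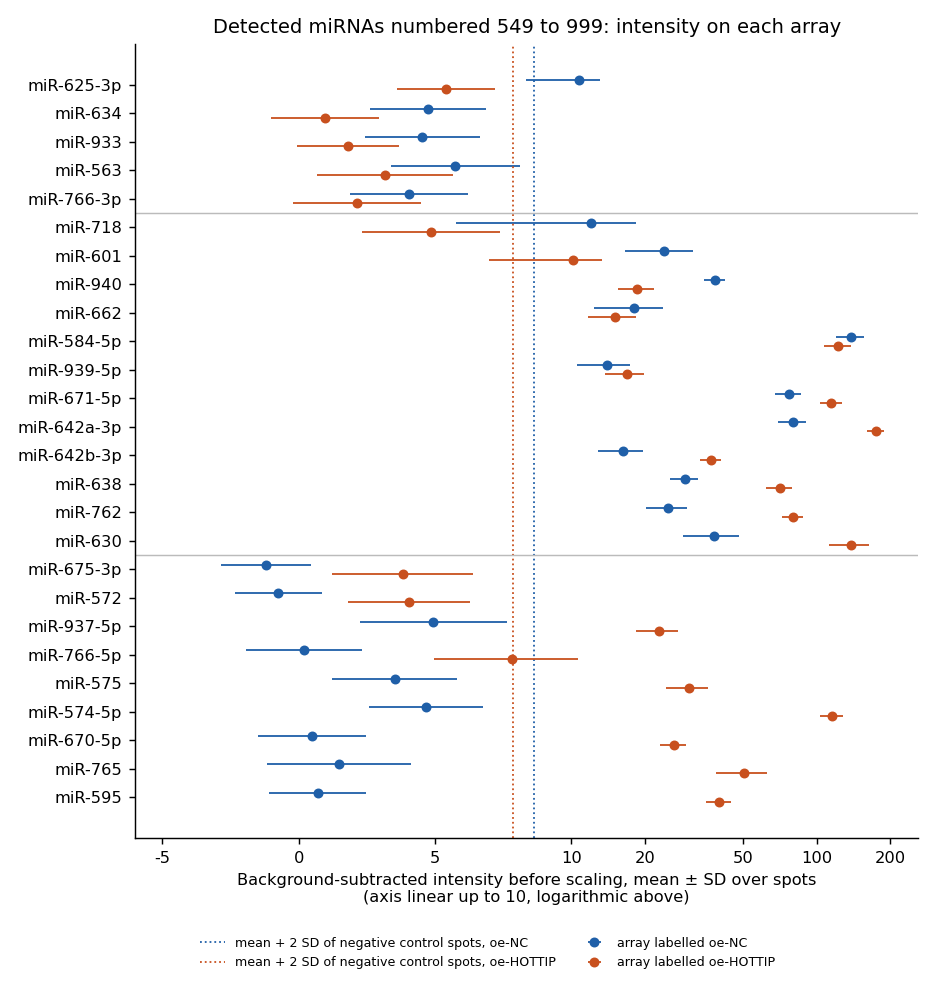
Background-subtracted intensity of each detected member (rows) before scaling, on an axis linear up to 10 and logarithmic above, with blue for oe-NC, orange for oe-HOTTIP and bars of 1 SD over spots. Dotted lines mark the negative control limits (8.62 and 7.87), and grey lines part members detected on oe-NC alone, on both arrays and on oe-HOTTIP alone, the last of which all sit left of the limit on oe-NC.

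miR-601, miR-940 and miR-718 were the members detected on both arrays that were lower on oe-HOTTIP. miR-601 lies at chr9:123402567-123402588 (minus strand, GRCh38.p14), within the span of DENND1A. Its signal was 24.0 ± 7.46 (SD, n = 20 spots) on oe-NC and 10.14 ± 3.15 (SD, n = 20 spots) on oe-HOTTIP. The log2 difference after scaling was −1.89, with a spread of 0.63 (combined from the SD over spots of both arrays), and its 4 probes gave values between −2.20 and −1.76. All 4 probes thus lay on the same side of 2-fold. On oe-NC 100% of its spots were well above background, and on oe-HOTTIP 30%. Under a rule that over 50% of spots be so, it was detected on oe-NC alone, with a bound of −1.23.

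miR-940 lies at chr16:2271806-2271826 (plus strand), outside the span of any listed host gene. Its signal was 38.6 ± 3.94 (SD, n = 19 spots) on oe-NC and 18.6 ± 3.15 (SD, n = 20 spots) on oe-HOTTIP. The log2 difference was −1.70 with a spread of 0.29, and its probes gave −1.79 and −1.63. The spots of the 2 arrays, taken as mean ± 1 SD, did not overlap.

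miR-718 lies at chrX:154019928-154019948 (minus strand). Its signal was 12.0 ± 6.26 (SD, n = 20 spots) on oe-NC and 4.86 ± 2.52 (SD, n = 20 spots) on oe-HOTTIP, where it did not pass the negative control limit. The log2 difference was −1.96 with a spread of 1.06. It rested on 1 of its 2 probes, which read 26.3 on oe-NC and 13.9 on oe-HOTTIP, a difference of −1.58. The other probe was below 0 on both arrays. The mean ± 1 SD ranges of the 2 arrays overlapped, and the spread was the widest of the 12 members.

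miR-630 and miR-762 were higher on oe-HOTTIP. miR-630, known for its part in the response of cells to DNA damage, lies at chr15:72587277-72587298 (plus strand) within the span of ARIH1. Its signal was 38.3 ± 9.84 (SD, n = 20 spots) on oe-NC and 138 ± 25.6 (SD, n = 19 spots) on oe-HOTTIP. The log2 difference was 1.20 with a spread of 0.46, and its probes gave 1.24 and 1.17. It passed 2-fold in 11 of 15 other processing settings (other scalings, background corrections, and detection and probe rules). Here and below, such counts leave out the deposited normalized table with its columns as named, and include it with its columns exchanged. With the columns as named, the log2 difference of miR-630 was −0.96, the opposite direction. Of the 15, the raised floor described below cannot change the value of a member detected on both arrays. The rule of passing the negative controls on both arrays cannot change such a value either, but it drops miR-718. The median of the members left under that rule was −0.08. Summed intensity per miRNA left the median of the members detected on both arrays at −0.23 and miR-601 at −1.89, as in the main setting. The counts of settings given here and below include all of these.

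miR-762 lies at chr16:30893951-30893972 (plus strand) within the span of BCL7C. Its signal was 24.9 ± 4.72 (SD, n = 20 spots) on oe-NC and 80.2 ± 7.67 (SD, n = 20 spots) on oe-HOTTIP. The log2 difference was 1.04 with a spread of 0.31, just past 2-fold, and its probes gave 1.1 and 1.03. The first of these probes read 5.07 on oe-NC, below the negative control limit of 8.62, and the other read 44.7. It passed 2-fold in 9 of 15 settings, with values from 0.16 to 1.69. Its seed is shared on the array by miR-4492, miR-4498 and miR-5001-5p, of which miR-5001-5p was detected. Against these, miR-601 and miR-940 kept a value past 2-fold in 14 of 15 settings each, and miR-718 in 12 of 13. Settings that cannot change their values are counted in. The 13 leave out the stricter detection rules, under which miR-718 had no value. With 50% of its spots well above background on oe-NC and 40% on oe-HOTTIP, it failed a rule of over 50%. It also failed the negative control rule, with 4.86 on oe-HOTTIP.

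**Figure D3:**
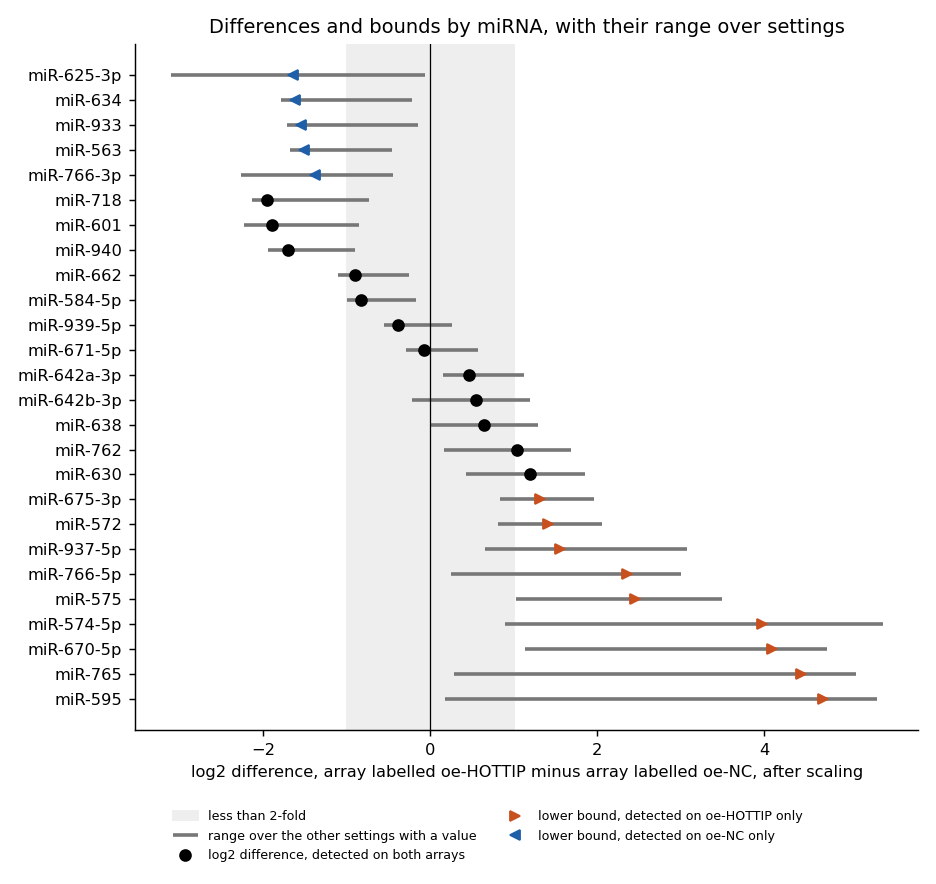
Log2 difference (oe-HOTTIP minus oe-NC, after scaling) of each detected member, with black points for members detected on both arrays, triangles for bounds of members detected on 1 array, and grey lines for the range over the other settings apart from the normalized table as named. The shaded band is less than 2-fold, and the line of miR-762 runs from 0.16 to 1.69, into the band.

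The other 7 members detected on both arrays were under 2-fold, though not in every setting. miR-662, at chr16:770243-770263 (plus strand) within the span of MSLNL, read 18.0 ± 5.62 (SD, n = 20 spots) on oe-NC and 15.1 ± 3.35 (SD, n = 19 spots) on oe-HOTTIP, a log2 difference of −0.90. Its 4 probes ran from −1.18 to −0.25, so 2 of them alone would have passed 2-fold, and it was under 2-fold in 10 of 15 settings. miR-584-5p, within the span of SH3TC2, read 138 ± 18.3 (SD, n = 20 spots) and 123 ± 15.8 (SD, n = 19 spots), a log2 difference of −0.82, and stayed under 2-fold in 15 of 15 settings. Both were dimmer on oe-HOTTIP before scaling as well as after it.

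miR-671-5p, which directs cleavage of the circular RNA CDR1as, read 77.3 ± 9.29 (SD, n = 20 spots) on oe-NC and 115 ± 11.7 (SD, n = 20 spots) on oe-HOTTIP. Scaling brought its log2 difference to −0.08 with a spread of 0.23, which covers 0, and without scaling it was 0.57. miR-939-5p read 13.99 ± 3.41 (SD, n = 20 spots) and 16.8 ± 3.01 (SD, n = 20 spots), and its log2 difference of −0.39 was smaller than its spread of 0.44. Its 2 probes disagreed in sign, at −0.95 and 0.07, and its difference was 0.26 without scaling, so no direction can be given for it.

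miR-638, at chr19:10718419-10718443 (plus strand) within the span of DNM2, read 29.0 ± 3.75 (SD, n = 20 spots) on oe-NC and 70.9 ± 8.55 (SD, n = 20 spots) on oe-HOTTIP, a log2 difference of 0.64. miR-642a-3p read 80.0 ± 10.7 (SD, n = 20 spots) and 174 ± 13.5 (SD, n = 20 spots), and miR-642b-3p read 16.2 ± 3.36 (SD, n = 20 spots) and 37.1 ± 3.63 (SD, n = 16 spots). Their log2 differences were 0.47 and 0.54, with spreads of 0.22 and 0.33. The values of these near-identical strands lay within their spreads of each other. miR-638 and miR-642b-3p were under 2-fold in 13 of 15 settings each and miR-642a-3p in 14 of 15, and miR-642b-3p turned to −0.21 under normexp background correction with an offset of 50. They lie on opposite strands of the same stretch of chromosome 19 (chr19:45674978-45674999, plus, and chr19:45674941-45674962, minus), within the span of GIPR. Before scaling, the spots of each of these 3 members were higher on oe-HOTTIP with no overlap at 1 SD.

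**Figure D4:**
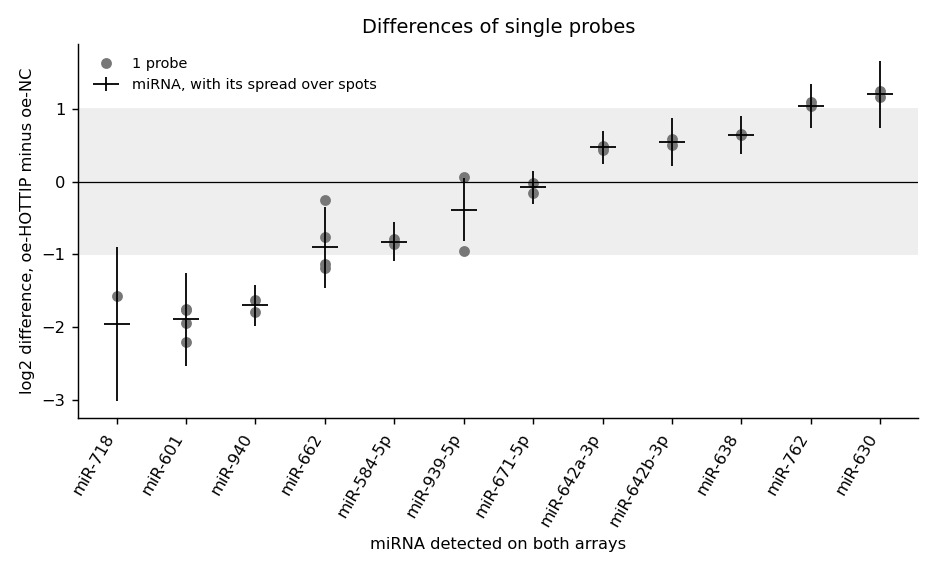
Log2 difference (oe-HOTTIP minus oe-NC, after scaling) of single probes (grey points) and of the whole miRNA (black dash, with its spread over spots as a vertical line) for the 12 members detected on both arrays. The shaded band is less than 2-fold, the probe of miR-718 with signals below 0 is not plotted, and the probes of miR-939-5p lie at −0.95 and 0.07.

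For members detected on 1 array alone, only a bound on the difference can be given. The detected signal is set against the other array, where the member's own signal is used unless the dimmest detected miRNA there was brighter. That dimmest signal was 0.976 on oe-NC and 2.43 on oe-HOTTIP, below the negative control means of 3.87 and 3.45. A bound against it is thus no strict minimum, and "at least" holds below under this rule alone. A raised floor was also tried, above which 50% or more of miRNAs with similar signals (a window of 51) were detected. Counting these bounds, 8 of the 26 detected members were lower on oe-HOTTIP by 2-fold or more and 11 were higher. Of the 457 miRNAs detected on at least 1 array, 25.2% were lower and 33.9% higher. Without scaling, the split of the members moved to 3 lower and 14 higher. In a bulk preparation such as this one, fewer vesicles carrying a miRNA and less of it per vesicle cannot be told apart.

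miR-574-5p, a strand rich in G and U that binds CELF1 and, in exosomes, Toll-like receptors, had the largest bound under the raised floor. It lies at chr4:38868056-38868078 (plus strand) within the spans of TLR6 and FAM114A1. Its signal was 4.69 ± 2.09 (SD, n = 19 spots) on oe-NC, not detected, and 115 ± 12.3 (SD, n = 18 spots) on oe-HOTTIP. It was at least 15.7-fold higher on oe-HOTTIP. With the raised floor the bound was 13.8-fold, under normexp with an offset of 50 the difference was 0.90 on the log2 scale, short of 2-fold, and no spot was well above background on oe-NC while all were on oe-HOTTIP.

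miR-765, at chr1:156936156-156936176 (minus strand), read 1.48 ± 2.63 (SD, n = 20 spots) on oe-NC and 50.7 ± 11.8 (SD, n = 20 spots) on oe-HOTTIP. Its bound was at least 21.8-fold higher, and 6.07-fold with the raised floor. miR-595 read 0.702 ± 1.77 (SD, n = 19 spots) and 39.96 ± 4.63 (SD, n = 20 spots), at least 26.1-fold higher, or 4.79-fold with the raised floor. Under normexp with an offset of 50, miR-765 was 1.22-fold and miR-595 1.13-fold higher, both short of 2-fold. The larger bound of miR-595 than of miR-574-5p came from its lower oe-NC signal, and the order turned round with the raised floor.

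miR-670-5p, at chr11:43559675-43559694 (plus strand) within the span of HSD17B12, read 0.488 ± 1.98 (SD, n = 20 spots) on oe-NC and 26.2 ± 3.23 (SD, n = 18 spots) on oe-HOTTIP. It was at least 17.1-fold higher, or 3.14-fold with the raised floor. miR-575 read 3.52 ± 2.31 (SD, n = 20 spots) and 30.3 ± 5.81 (SD, n = 20 spots), at least 5.47-fold higher, or 3.62-fold. miR-937-5p read 4.93 ± 2.70 (SD, n = 20 spots) and 22.8 ± 4.401 (SD, n = 20 spots), at least 2.94-fold higher, or 2.73-fold. These 6 members passed the negative control limit on oe-HOTTIP and stayed past 2-fold with the raised floor.

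The other 3 members detected on oe-HOTTIP alone were near background there. miR-766-5p read 0.192 ± 2.13 (SD, n = 20 spots) on oe-NC and 7.82 ± 2.85 (SD, n = 20 spots) on oe-HOTTIP, at least 5.11-fold higher. miR-572 read −0.747 ± 1.60 (SD, n = 18 spots) and 4.06 ± 2.25 (SD, n = 20 spots), at least 2.65-fold higher. miR-675-3p, cut from the long noncoding RNA H19, read −1.19 ± 1.66 (SD, n = 19 spots) and 3.81 ± 2.57 (SD, n = 20 spots), at least 2.49-fold higher. None of the 3 passed the negative control limit, none had a bound with the raised floor, and miR-572 and miR-675-3p each rested on 1 probe.

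Of the 5 members detected on oe-NC alone, miR-625-3p was the only one that passed the negative control limit. It lies at chr14:65471153-65471174 (plus strand) within the span of FUT8 and read 10.7 ± 2.36 (SD, n = 20 spots) on oe-NC and 5.39 ± 1.80 (SD, n = 20 spots) on oe-HOTTIP. It was at least 3.12-fold lower on oe-HOTTIP, or 2.61-fold with the raised floor. miR-634 read 4.76 ± 2.13 (SD, n = 20 spots) and 0.955 ± 1.98 (SD, n = 20 spots), at least 3.08-fold lower. miR-933 read 4.53 ± 2.11 (SD, n = 20 spots) and 1.80 ± 1.87 (SD, n = 20 spots), at least 2.93-fold lower. miR-563 read 5.75 ± 2.36 (SD, n = 19 spots) and 3.16 ± 2.49 (SD, n = 20 spots), at least 2.86-fold lower. For these 3 the bound with the raised floor fell to between 1.11-fold and 1.40-fold, short of 2-fold.

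Both arms were on the array for 53 hairpins. Neither arm was detected for 42 of them, 1 arm for 10, and both arms for miR-766 alone. The same count was not made over all hairpins of the array. The arms of miR-766 were detected on opposite arrays. The 5p arm was detected on oe-HOTTIP, as given above. The 3p arm read 4.04 ± 2.15 (SD, n = 18 spots) on oe-NC and 2.14 ± 2.35 (SD, n = 20 spots) on oe-HOTTIP, at least 2.61-fold lower, with no bound under the raised floor. Neither arm passed the negative control limit on the array that detected it.

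A list of miRNAs in this range that are also known in mouse under the same number held 39 array entries. The list was not checked for completeness, so other members may be known in mouse too. Of its entries, 4 were detected on at least 1 array (10.3%), namely miR-574-5p, miR-670-5p, miR-671-5p and miR-675-3p. The share was near those of the 214 members (12.1%) and of all 2549 miRNAs (17.9%). Detection on both arrays was found for miR-671-5p, and the other 3 were detected on oe-HOTTIP alone. No entry of the X-linked cluster expressed in epididymis (miR-888, miR-890, miR-891 and miR-892) was detected, of 10 on the array, and with 10 entries this cannot be read against those shares. The entry of miR-877, a mirtron spliced from an intron, was not detected on either array. H19, whose transcript yields miR-675, had 1 of 2 arms detected.

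The base composition of the detected members differed by array, a comparison chosen after the values were seen. The 6 members with a sequence that were detected on oe-HOTTIP alone had a median of 40.5% G, and the 4 on oe-NC alone had 17.3%. Among the 6, miR-572, miR-675-3p and miR-766-5p did not pass the negative control limit, nor did miR-563, miR-634 and miR-933 among the 4. The brighter miR-575, miR-595 and miR-937-5p had no sequence and are not in these medians. Over all miRNAs of the array with a sequence the medians were 44.4% (n = 109) and 15.8% (n = 60), and 26.1% for those detected on neither array. For C the order was the opposite, with medians of 12.0% and 36.4% among the members and 14.3% and 39.2% over all miRNAs. miR-574-5p and miR-765 hold no C, as their sequences above show, while miR-675-3p, also detected on oe-HOTTIP alone, holds 45.0% C. Of the 3 members lower on oe-HOTTIP among those detected on both arrays, miR-718 and miR-940 hold 52.4% C each while miR-601 holds 4.55%. The 11 members with a sequence that were detected on both arrays had a median G+C content of 66.7%, against 51% and 53.7% for those on oe-NC alone and on oe-HOTTIP alone and 47.8% for the 164 detected on neither. Over all miRNAs of the array the median was likewise higher for those detected on both arrays (61.0%) than on neither (50%).

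**Figure D5:**
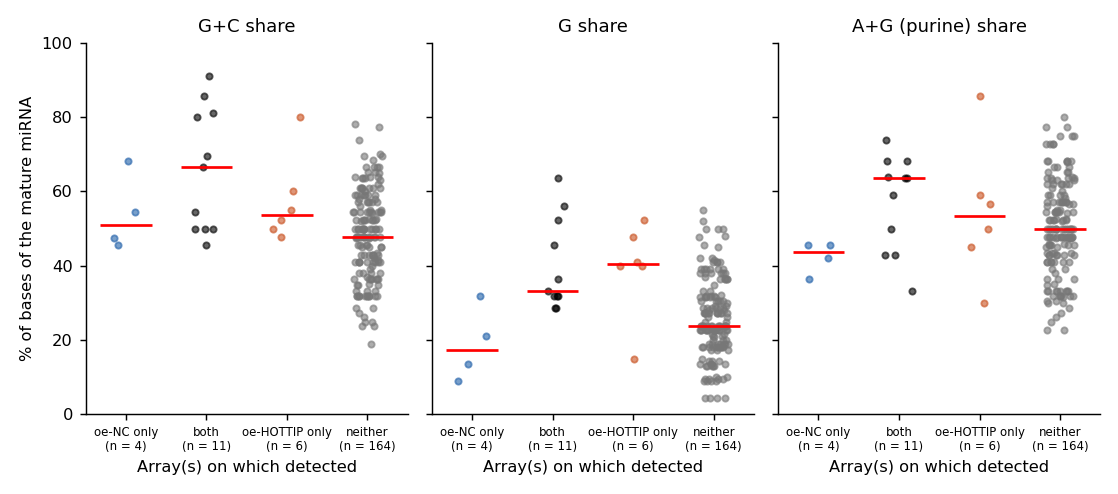
Base composition of each member's mature sequence (percent, y axis) by the array on which the member was detected (x axis), for G+C, G and A+G in separate panels. Points are members and red lines are medians, and in the G panel the median is 40.5% for oe-HOTTIP alone and 17.3% for oe-NC alone.

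Short motifs described for sorting of miRNAs into exosomes were searched in the mature strands, read 5′ to 3′ on the single strand. GGAG was found in 7 of the 21 detected members with a sequence (33.3%), among them miR-601, miR-765 and miR-766-5p, and in 21 of 164 undetected members (12.8%). Over all miRNAs of the array with a sequence, 15.9% held it, and 32.3% of those detected. CCCU was found in 4 of the 21 (19.05%), among them miR-625-3p and miR-670-5p, against 10.3% of all detected miRNAs and 12.0% of all. GGCU was found in 2 of the 21 (9.52%), miR-671-5p and miR-762, against 17.1% of all detected miRNAs and 12.5% of all. No base can start more than 1 of these motifs. The share of detected members with GGAG was thus close to the share among all detected miRNAs, and a match is no evidence of sorting.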

How the data were processed

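RNA of 200 ng from FaDu exosomes was hybridised by the authors to 1-colour Agilent miRNA arrays, and the deposited scanner files give background-subtracted intensity for each spot. Per the file headers Feature Extraction 11.5.1.1 made them, while the submitters' processing notes name 10.10. The deposited normalized table holds log2 values, 1 column per array, and was used as an alternative. Here, control and outlier spots were left out, spots were averaged per probe and probes per miRNA, and signals were scaled to the 90th percentile of the shared detected miRNAs on each array. A miRNA was called at 2-fold. The lowest detected signal was 0.976 on oe-NC and 2.43 on oe-HOTTIP. The raised floor was 5.32 and 6.44. Precision is limited by the number of arrays, 1 in each group.

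The text names every member detected on both arrays, the 5 largest bounds in each direction, both arms of a hairpin when both were detected, and detected members of the lists. miR-572 and miR-937-5p fall outside that rule and were added after their values were seen, so that every detected member is given. The members and lists were chosen with earlier results of these data known. Alternatives covered scaling, background correction (normexp in limma 3.58.1, R 4.3.3), the table, detection rules and probe choice, and base composition and probe-level differences were added after the data were seen. Scripts used Python 3.11.15 with numpy 2.4.6 and pandas 2.3.3 and were tested on simulated data. The host gene names are those whose span in RefSeq holds the strand, and exon, intron and host strand were not compared.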

Additional observations from a re-analysis of the deposited data

How the results depend on the processing

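No paired analysis was possible because only 1 array stands for either condition. Of 364 values of members under 16 alternative settings, 243 moved by less than the spread of their spots and 109 moved further. Some of the 243 come from settings that cannot change the value of a member detected on both arrays. The remaining 12, all of members past 2-fold, reversed under the normalized table with its columns as named. Members under 2-fold changed sign in a further 13 values, counted among those that moved or stayed within the spread, 7 under that table and 6 elsewhere (miR-671-5p, miR-939-5p and miR-642b-3p). Under that table the reversed log2 values were −3.99 for miR-574-5p, −2.10 for miR-575, −2.51 for miR-595, 2.22 for miR-601, 1.93 for miR-625-3p, −0.96 for miR-630, −1.95 for miR-670-5p, 1.80 for miR-718, −0.92 for miR-762, −2.77 for miR-765, −1.73 for miR-937-5p and 1.90 for miR-940. That table gave 13 members detected on oe-HOTTIP, 5 higher and a median difference of 0.42. With its columns exchanged it gave 5 lower and 6 higher members, beside 104 lower and 82 higher over all miRNAs. The 8 lower members became 3 without scaling, and 4 with the scanner's summed intensity per miRNA as the signal. They became 4 with the raised floor and 5 with the brightest probe. Over all miRNAs, the 115 lower became 63 without scaling, 117 with the summed intensity, 88 with the raised floor and 87 with the brightest probe. Under a rule that over 50% of spots be well above background, 2 members were lower and 11 were detected on oe-NC. Of all miRNAs, 33 were lower under that rule. The median of the members was 0.42 without scaling and 0.42 under that rule. Normexp without an offset gave 4 lower and 5 higher, and with an offset of 50 it gave 0 lower and 0 higher, since the offset shrinks the differences of dim signals. Over all miRNAs it gave 84 lower and 53 higher without the offset, and 26 lower and 8 higher with it. Among members above the negative controls on both arrays, 2 were lower and 2 higher, beside 49 lower and 31 higher over all miRNAs. Signal over background limits the members detected on 1 array. Of the 14 such members, 7 passed the negative control limit where they were detected.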

Other observations

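In the deposited normalized table, 22 members lay above its lowest value in at least 1 column, and 4 members that the scanner detected did not (miR-563, miR-634, miR-766-3p and miR-933). Across the members, the column named oe-NC had a Spearman correlation of 1.00 with the oe-HOTTIP array (n = 21 members) and 0.76 with its own array (n = 12 members). The column named oe-HOTTIP had 1.00 with the oe-NC array (n = 13 members) and 0.76 with its own (n = 12 members). All 12 members above the lowest value in both columns differed in the direction opposite to the scanner files. These values are across members of 1 array, which are not replicates, and the sources used here do not settle which assignment is right.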
